A study of Rattus norvegicus with 10 samples.

Results

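The genes described here make, take up, move and export cholesterol, and were chosen by name as a list of 36 symbols covering the synthesis enzymes, their regulators, and the genes of uptake, handling and efflux. In the mRNA count table, 34 of the 36 symbols matched a row and each of the 34 had a single row. All 34 passed the minimum of 44 counts summed over the 10 libraries, among 22431 of 32041 RNA records that did so. No row was matched to Srebf1 or Cyp46a1, which are not analysed here. Only 54.2% of the RNA records received a symbol, so a record of a listed gene may have gone unmatched. The RNA came from adult male Sprague-Dawley rats, 5 with traumatic brain injury (TBI) by lateral fluid percussion and 5 with sham surgery. Lateral fluid percussion drives a fluid pulse, here of 3.32 atm, against the intact dura through an opening in the left parietal skull. Sham rats had the same anaesthesia and craniectomy without the pulse, so skull surgery is common to both groups. Tissue with CA3 and dentate gyrus of the left hippocampus was taken 3 months later, with the labels naming the tissue as dorsal hippocampus, and each library is 1 rat. The labels do not say which rats had seizures.

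Cells of the brain make most of their cholesterol themselves, since lipoproteins of the blood hardly cross the blood-brain barrier. Acetyl-CoA is turned by the mevalonate pathway into farnesyl diphosphate, and the sterol branch turns this by way of squalene and lanosterol into cholesterol. When sterol is low in the membrane of the endoplasmic reticulum, SCAP escorts the factor SREBP2 to the Golgi apparatus to be cut free, and the INSIG proteins hold the pair back when sterol is plentiful. Astrocytes release cholesterol on lipoprotein particles through the transporter ABCA1 and its relatives, whose genes are switched on by the oxysterol-binding LXR receptors, and neurons take these particles up through lipoprotein receptors.

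Promoter sequence was read for the listed genes, whether or not they are under this control. RefSeq promoters on the GRCr8 assembly were matched for 28 of the 34 genes, with no entry for Fdft1, Pmvk, Sqle, Abcg1, Clu and Stard4. The 250 bases before the annotated start were searched on both strands for CCAAT, the core of sites bound by NF-Y, a factor that works beside SREBP2. CCAAT was present in 12 of 15 synthesis enzyme promoters (80.0%) and in 5 of the 13 others (38.5%), against 11385 of all 33469 promoters (34.0%). Of the promoters with matches, 3 are shown here with CCAAT, or ATTGG where the match lies on the other strand, in capitals: that of Hmgcs1, the entry enzyme of mevalonate synthesis, and those of Msmo1 and Nsdhl, which were lower in TBI at an unadjusted p under 0.05. The promoter of Abca1, which was higher at this threshold, has no match and is also shown. Enzymes with log2 changes above 0 held matches too, as Mvk (0.08) had 5 and Lss (0.05) and Mvd (0.01) had 1 each.
Hmgcs1, chr2:53382054-53382303, plus strand: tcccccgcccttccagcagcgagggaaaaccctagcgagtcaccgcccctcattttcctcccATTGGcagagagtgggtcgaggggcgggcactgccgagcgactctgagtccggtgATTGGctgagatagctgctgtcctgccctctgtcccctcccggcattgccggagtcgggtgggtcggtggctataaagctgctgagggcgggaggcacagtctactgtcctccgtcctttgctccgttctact
Msmo1, chr16:29746863-29747112, plus strand: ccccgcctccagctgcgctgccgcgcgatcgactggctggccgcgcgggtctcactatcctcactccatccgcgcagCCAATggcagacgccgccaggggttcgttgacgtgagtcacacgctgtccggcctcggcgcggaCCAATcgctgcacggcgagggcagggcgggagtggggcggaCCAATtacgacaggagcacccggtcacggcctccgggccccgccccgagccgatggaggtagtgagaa
Nsdhl, chrX:155817110-155817359, plus strand: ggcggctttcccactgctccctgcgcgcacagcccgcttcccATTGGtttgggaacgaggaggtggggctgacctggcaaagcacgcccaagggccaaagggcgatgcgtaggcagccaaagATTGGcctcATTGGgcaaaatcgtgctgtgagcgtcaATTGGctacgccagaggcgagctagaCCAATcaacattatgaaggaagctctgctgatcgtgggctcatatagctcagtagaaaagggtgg
Abca1, chr5:72596474-72596723, minus strand: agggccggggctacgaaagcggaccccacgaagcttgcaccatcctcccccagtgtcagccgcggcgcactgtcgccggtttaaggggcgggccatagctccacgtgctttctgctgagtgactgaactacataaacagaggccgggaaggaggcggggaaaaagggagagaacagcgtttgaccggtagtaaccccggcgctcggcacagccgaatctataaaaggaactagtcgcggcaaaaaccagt
Hmgcs1 had 2 matches, Msmo1 had 3 and Nsdhl had 5. The sterol regulatory element, searched as TCACNCCAC, was in 0 of 15 enzyme promoters, 0 of the 13 others and 0.974% of all promoters, which says only that these letters are not in these windows. The E-box CACGTG was in 1 of 15 enzyme promoters, that of Sc5d, and in those of Insig1, Abca1 and Scap, against 5.59% of all promoters. No CCAAT match overlapped an E-box match in these genes. A match of letters does not show that a factor binds there.

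The comparison asked which of the 34 genes differed between TBI and sham rats. Differences were small. Of 18 synthesis enzymes, 15 had a fitted level below that of sham rats, by at most 0.22 on the log2 scale, whereas the genes with the largest positive changes were the lipoprotein gene Clu, the efflux genes Abca1 and Nr1h3, and the oxysterol enzyme Ch25h. In edgeR's quasi-likelihood test 0 of 34 genes passed a Benjamini-Hochberg adjusted p of 0.05 over all rows, and 0.0% of all 22431 rows did. The smallest adjusted p among the genes was 0.483, for Clu. The other tools, DESeq2, limma-voom and edgeR's exact test and likelihood ratio test, also gave 0. At an unadjusted p under 0.05 there were 6 of 34 genes (17.6%), against 7.89% of all rows. Clu, Ch25h and Abca1 were higher and Msmo1, Nsdhl and Fdft1 were lower, while of all rows 4.89% were higher and 3.0% lower at this threshold. DESeq2 and the exact and likelihood ratio tests gave 5 genes each, and limma-voom gave 3. Of all rows, 7.40% (DESeq2), 7.60% (exact test), 7.82% (likelihood ratio test) and 7.94% (limma-voom) were at this threshold. Levels are given below as CPM, normalised counts relative to the library size and scaled by the trimmed mean of M-values (TMM), and are comparable between rats for 1 gene but not between genes, since they are not divided by transcript length.

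Libraries held 23425817 to 31671838 counts on RNA records. Ribosomal RNA took 59.0% and 58.5% of the counts of sham replicates 4 and 5, and from 12.5% to 26.2% of those of the other 8 rats. The ribosomal share thus moved with the groups, at a mean of 38.7% in sham and 19.7% in TBI libraries, and so did the counts outside ribosomal RNA, at means of 17169533 and 22866915 (two-sided exact permutation p = 0.0238 for each). Values with this share as a covariate are given beside the genes at an unadjusted p under 0.05 and beside Stard4 and Nr1h3. The 34 genes together had 40269 and 41865 counts in those 2 sham rats and 72678 to 114726 in the others, so the former are measured less precisely. Scaling by total counts, which includes ribosomal RNA, put the median over all rows at a log2 change of 0.50 in place of -0.008, and scaling by counts outside ribosomal RNA moved it to 0.14. Under both scalings the split at an unadjusted p under 0.05 was 5 genes higher (Clu, Ch25h, Abca1, Nr1h2 and Nr1h3) and 0 lower, in place of 3 and 3. Of all rows, 16.9% and 12.9% were at this threshold under the respective scalings, so the genes' count there was near the background. Directions below are relative to the bulk of the rows.

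**Figure D1:**
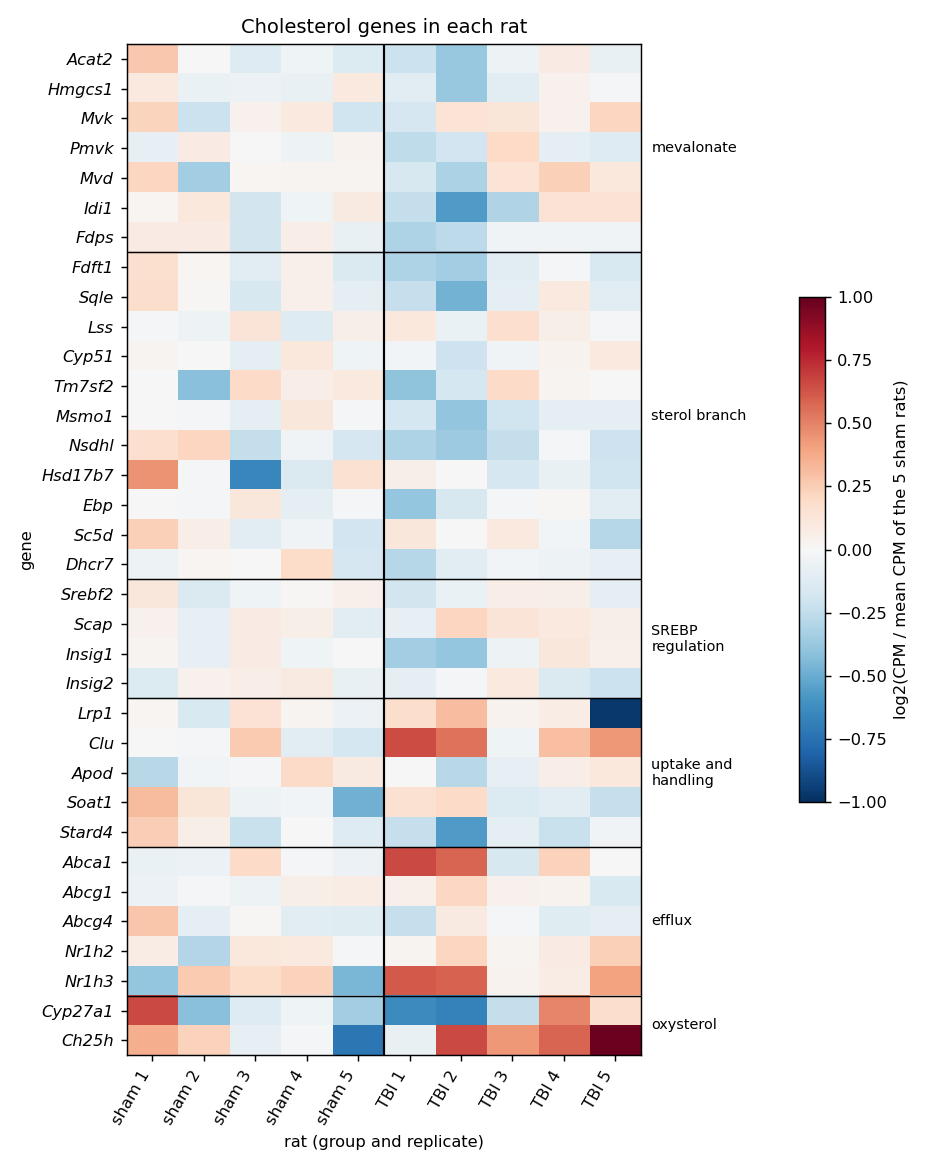
Each square is 1 gene in 1 rat, coloured by the log2 ratio of its CPM to the mean CPM of the 5 sham rats, with genes in rows by role and rats in columns. In TBI replicates 1 and 2 most synthesis enzymes are blue, while Clu, Abca1 and Nr1h3 are red. These genes are mostly paler in TBI replicates 3 to 5. In TBI replicate 5 Lrp1 is deep blue and Ch25h deep red.

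The 7 mevalonate pathway enzymes gave 0 genes at an unadjusted p under 0.05, and 5 of the 7 were below 0. Acat2, which joins the first acetyl units, had a log2 change of -0.12, Hmgcs1 of -0.11, the mevalonate kinase Mvk of 0.08 and the next kinase Pmvk of -0.09. The decarboxylase Mvd was at 0.01, the isomerase Idi1 at -0.14 and the farnesyl diphosphate synthase Fdps at -0.13. Fdps had the smallest p of the group. It was at 45.3, 45.4, 37.6, 44.8 and 40.7 CPM in sham replicates 1 to 5 and at 34.6, 35.6, 41.8, 41.8 and 41.8 CPM in TBI replicates 1 to 5. TBI replicates 1 and 2 lay below all sham rats and the other 3 lay among them. The log2 change of -0.13 had an SE (standard error) of 0.0838 and an unadjusted p of 0.142. Idi1 overlaps the protein-coding gene Wdr37 on the GRCr8 annotation, and the counting is not stated to use strand.

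The 11 sterol branch enzymes held all 3 of the genes that were lower at an unadjusted p under 0.05, and 10 of the 11 were below 0. Msmo1, which oxidises the methyl groups that are removed from lanosterol products, was at 59.8, 59.1, 56.1, 64.6 and 58.8 CPM in sham replicates 1 to 5. In TBI replicates 1 to 5 it was at 52.9, 45.5, 51.9, 55.7 and 55.9 CPM. All TBI rats were below all sham rats, although the highest TBI rat and the lowest sham rat were only 55.9 and 56.1 CPM. Msmo1 was the only 1 of the 34 genes whose groups did not overlap, and 0.923% of all rows did not. Its log2 change was -0.19 (SE 0.0761), with an unadjusted p of 0.0238 and, in edgeR's quasi-likelihood test, a Benjamini-Hochberg adjusted p of 0.573. The p was under 0.05 in 8 of the 10 fits that left out 1 rat, and was 0.0791 at most. With the ribosomal RNA share as a covariate the log2 change was -0.14 with an unadjusted p of 0.170, and without sham replicates 4 and 5 it was -0.15 with an unadjusted p of 0.115.

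Nsdhl, the dehydrogenase of the same demethylation, was at 22.9, 23.6, 17.3, 19.9 and 18.1 CPM in sham replicates 1 to 5 and at 16.5, 15.9, 17.3, 20.1 and 17.7 CPM in TBI replicates 1 to 5. The groups overlapped, and the highest values were those of sham replicates 1 and 2. Its log2 change was -0.22 (SE 0.10) with an unadjusted p of 0.0377. Fdft1, the squalene synthase that commits farnesyl diphosphate to sterols, was at 95.2, 86.7, 79.2, 88.2 and 77.4 CPM in sham replicates 1 to 5. In TBI replicates 1 to 5 it was at 69.0, 67.1, 78.8, 84.8 and 77.0 CPM. TBI replicates 1, 2 and 5 were below all sham rats, and replicates 3 and 4 lay within the sham range. Its log2 change was -0.18 (SE 0.0837) with an unadjusted p of 0.0438. Nsdhl and Fdft1 each had a p under 0.05 in 4 of the 10 fits that left out 1 rat. With the ribosomal RNA covariate the unadjusted p was 0.0299 for Nsdhl and 0.0666 for Fdft1.

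Sqle, the squalene epoxidase and a slow step of the branch, was at 48.7, 43.4, 38.5, 44.5 and 40.1 CPM in sham replicates 1 to 5 and at 36.7, 30.9, 40.5, 46.1 and 39.8 CPM in TBI replicates 1 to 5. TBI replicates 1 and 2 were again below all sham rats. For Sqle the log2 change was -0.15 (SE 0.0975) with an unadjusted p of 0.140. The remaining enzymes had log2 changes from -0.13 to 0.05. The sterol isomerase Ebp was at -0.13, the last-step reductase Dhcr7 at -0.11, the keto-reductase Hsd17b7 at -0.07 and the sterol reductase Tm7sf2 at -0.06. The lanosterol demethylase Cyp51 was at -0.02, the desaturase Sc5d at -0.02 and the lanosterol synthase Lss at 0.05. None of these had an unadjusted p under 0.2.

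**Figure D2:**
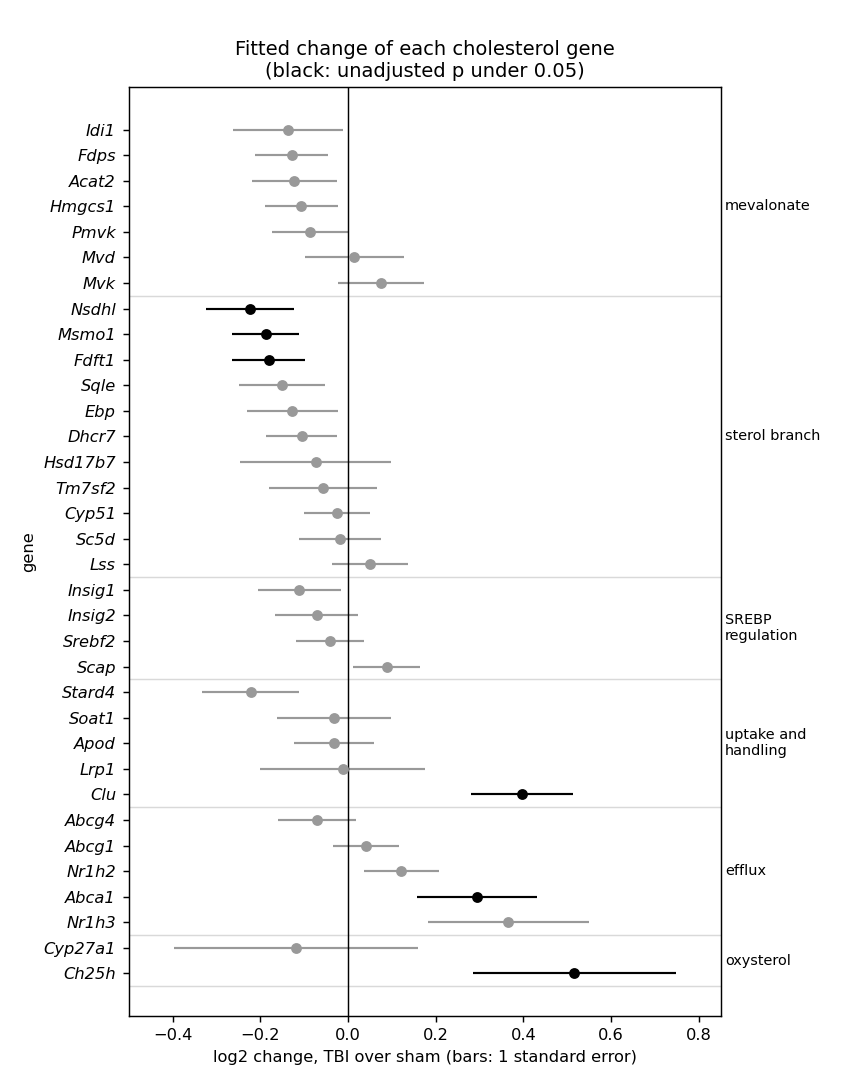
Points are fitted log2 changes of TBI over sham and bars are 1 standard error, for 34 genes grouped by role, with genes at an unadjusted p under 0.05 in black. Of 18 enzymes in the top groups, 15 lie left of 0, and Clu and Ch25h lie farthest right. Under scaling by total counts 0 of 18 were below 0. Taking off the shift of the median of all rows gave 15 of 18 nearly by construction, since scaling moves all rows nearly alike.

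Over the 18 synthesis enzymes the median log2 change was -0.11, against -0.008 over all rows, and 83.3% were below 0, against 52.2% of all rows. Under scaling by total counts 0 of 18 were below 0, and 15 of 18 were below 0 once the shift of the median of all rows was taken off. Scaling moves all rows nearly alike, so the latter count follows nearly by construction and adds no separate evidence. The rats did not share the pattern evenly. TBI replicates 1 and 2 were each below all 5 sham rats in 11 of 18 enzymes and above all of them in 0. The count below was 4, 2 and 5 in TBI replicates 3, 4 and 5, and the count above was 3, 2 and 1. Set against the other 4 sham rats, a sham rat was below them all in 1 to 7 enzymes and above them all in 1 to 7. This reference has 4 rats and that of the TBI rats has 5, so the counts are not fully alike. The share of all rows below or above all sham rats was not counted for single rats. Whether these counts are particular to the enzymes was therefore not tested. The mean of centred log2 CPM over the enzymes was -0.131 and -0.185 in TBI replicates 1 and 2, and 0.026, 0.072 and -0.001 in replicates 3 to 5. Sham rats lay between -0.033 and 0.159. Without TBI replicate 2 the median log2 change of the enzymes was -0.06, and without that rat 0 of the enzymes had an unadjusted p under 0.05. Without TBI replicate 1 the median was -0.08, and Msmo1 was the only enzyme at this threshold.

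SREBP regulation was represented by 4 genes, with 0 at an unadjusted p under 0.05. Srebf2, which encodes SREBP2, had a log2 change of -0.04 and Scap of 0.09. Insig1, itself a target of SREBP2, had the smallest p of the group. It was at 50.0, 46.3, 51.7, 47.6 and 49.2 CPM in sham replicates 1 to 5 and at 38.4, 37.5, 47.4, 52.9 and 50.6 CPM in TBI replicates 1 to 5. Sham rats stayed within a narrow range, with TBI replicates 1 and 2 below it and TBI replicate 4 above it. The log2 change was -0.11 (SE 0.0945) with an unadjusted p of 0.257. Insig2 was at -0.07.

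Among the 5 genes of uptake and handling, Clu was higher and had the smallest p of all 34. Clu encodes clusterin (apolipoprotein J), a lipid-carrying secreted protein made largely by astrocytes. It was at 623, 619, 750, 576 and 552 CPM in sham replicates 1 to 5 and at 981, 911, 606, 768 and 841 CPM in TBI replicates 1 to 5. TBI replicates 1, 2, 4 and 5 were above all sham rats, while TBI replicate 3 lay within the sham range and sham replicate 3 was the highest sham rat. Sham rats had a mean of 624 CPM ± 76.3 (SD, n = 5). The TBI mean was 821 CPM ± 144 (SD, n = 5), a ratio of 1.32. This gave a log2 change of 0.40 (SE 0.116) with an unadjusted p of 0.00314. The p stayed under 0.05 in 10 of 10 fits that left out 1 rat. With the ribosomal RNA share as a covariate the log2 change was 0.29 and the unadjusted p 0.0643. Without sham replicate 3 and TBI replicate 3, a choice made after the data were seen, the log2 change was 0.56 and edgeR's quasi-likelihood test gave a Benjamini-Hochberg adjusted p of 0.00857. In that fit 320 of 21980 rows passed this threshold, so Clu was 1 of many. Clu is on the study's own list of altered genes for this model, drawn with edgeR at an unadjusted p under 0.001. On that list Lcat, Npc2, Gfap and Wfs1, described below, among others, also passed an adjusted p of 0.05, and Clu did not. The list is not independent of these samples, although the methods give fewer controls for it than the labels do. Clu overlaps the protein-coding gene Scara3.

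Stard4, a carrier of cholesterol between membranes, was at 18.9, 16.5, 13.6, 16.0 and 14.5 CPM in sham replicates 1 to 5 and at 13.5, 10.8, 14.8, 13.6 and 15.5 CPM in TBI replicates 1 to 5. The groups overlapped, with TBI replicate 2 lowest. Its log2 change was -0.22 (SE 0.110) with an unadjusted p of 0.0576. With the ribosomal RNA covariate the log2 change was -0.28 with an unadjusted p of 0.0618. Soat1, which stores cholesterol as ester, had a log2 change of -0.03, as did the lipocalin Apod. Lrp1, a receptor for lipoproteins with apolipoprotein E, is described because 1 rat stood apart, a choice made after its values were seen. It was at 628, 559, 686, 631 and 595 CPM in sham replicates 1 to 5 and at 699, 770, 635, 652 and 318 CPM in TBI replicates 1 to 5. TBI replicate 5 was far below all other rats. Its log2 change was -0.01 with all rats and 0.15 without TBI replicate 5, with unadjusted p values of 0.950 and 0.107.

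**Figure D3:**
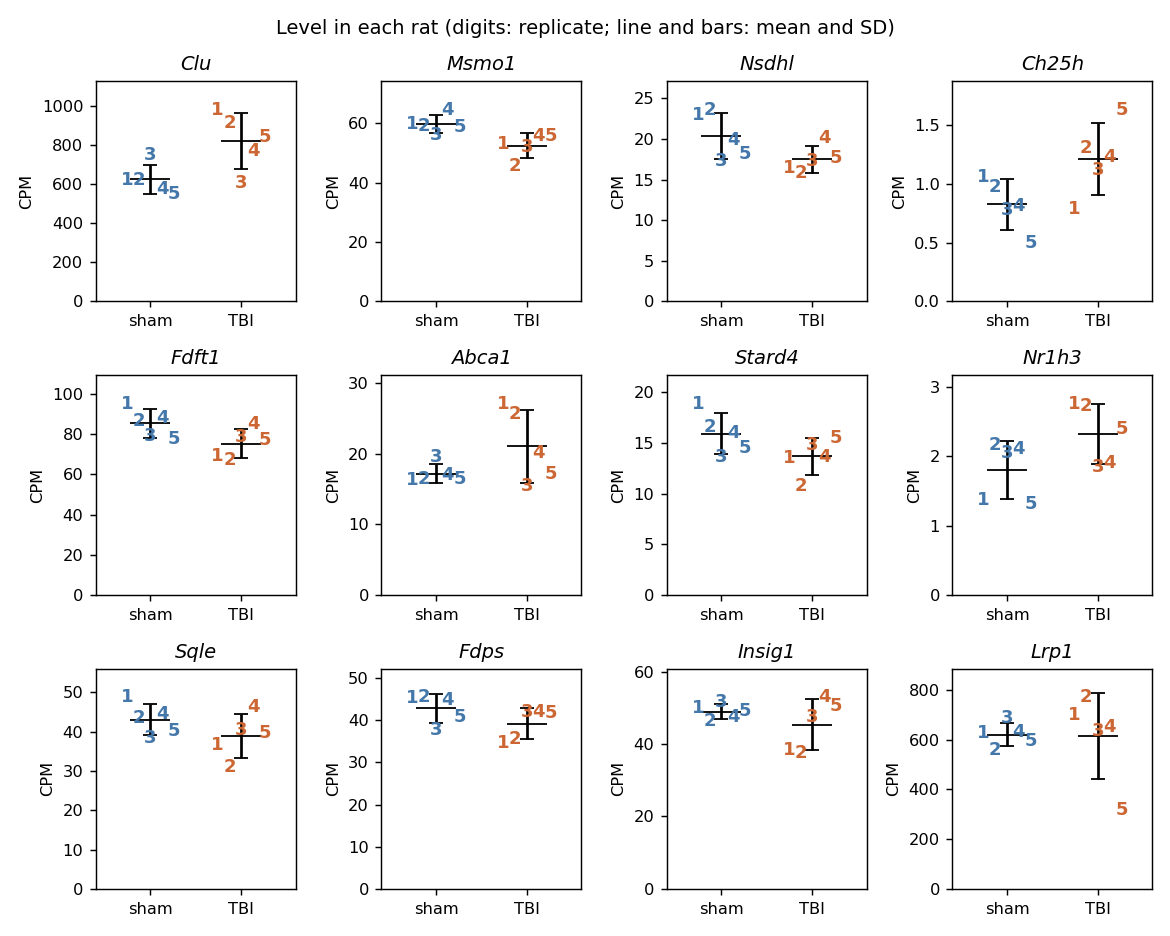
Each digit is the CPM of 1 rat, numbered by replicate, for the 10 genes with the smallest p and for Insig1 and Lrp1, with the mean as a line and the SD as bars, on axes that start at 0. Only Msmo1 shows no overlap of the groups, and TBI replicate 5 lies at 318 CPM for Lrp1.

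Of the 5 genes of efflux, 4 had positive log2 changes and 1, Abca1, had an unadjusted p under 0.05. Abca1 loads cholesterol onto lipid-poor apolipoproteins. It was at 16.3, 16.4, 19.5, 17.0 and 16.4 CPM in sham replicates 1 to 5 and at 27.1, 25.6, 15.4, 20.1 and 17.1 CPM in TBI replicates 1 to 5. TBI replicates 1, 2 and 4 were above all sham rats and TBI replicate 3 was below them all. Abca1 had a log2 change of 0.29 (SE 0.137) with an unadjusted p of 0.0462, and the p was under 0.05 in 3 of the 10 fits that left out 1 rat. Without TBI replicate 1 the log2 change was 0.19, and without TBI replicate 2 it was 0.21. The unadjusted p was 0.0985 with the ribosomal RNA covariate (log2 change 0.31), 0.13 without sham replicates 4 and 5 and 0.181 with limma-voom.

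Nr1h3, which encodes the receptor LXR-alpha, was low, with 21 to 102 counts in a library. It was at 1.37, 2.16, 2.05, 2.11 and 1.31 CPM in sham replicates 1 to 5 and at 2.75, 2.71, 1.85, 1.90 and 2.38 CPM in TBI replicates 1 to 5. TBI replicates 1, 2 and 5 were above all sham rats, with replicates 1 and 2 highest. The log2 change was 0.37 (SE 0.184) with an unadjusted p of 0.0612. With the ribosomal RNA covariate the log2 change was 0.30 with an unadjusted p of 0.219. Nr1h3 overlaps the protein-coding gene Acp2. The second receptor, Nr1h2 (LXR-beta), had a log2 change of 0.12, the transporter Abcg1 of 0.04 and the neuronal transporter Abcg4 of -0.07.

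Oxysterol enzymes oxidise cholesterol to more soluble forms that activate LXR. Ch25h, the cholesterol 25-hydroxylase of immune cells, was at 1.06, 0.970, 0.780, 0.816 and 0.50 CPM in sham replicates 1 to 5 and at 0.783, 1.30, 1.11, 1.23 and 1.63 CPM in TBI replicates 1 to 5. TBI replicates 2 to 5 were above all sham rats, and TBI replicate 1 lay within the sham range. These are 8 to 63 counts in a library, so the values are imprecise. The log2 change was 0.52 (SE 0.232) with an unadjusted p of 0.0383. The lowest value was that of sham replicate 5, a library rich in ribosomal RNA, and with the ribosomal RNA share as a covariate the log2 change was 0.19 with an unadjusted p of 0.495. Cyp27a1, a mitochondrial hydroxylase, had a log2 change of -0.12 whose SE of 0.278 was the largest of the 34, and ranged from 5.51 to 13.9 CPM.

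Other genes of the pathway were read from a list of 51, of which 46 were tested. At an unadjusted p under 0.05 there were 5 higher and 3 lower, or 17.4% of the list. Of all rows 7.89% were at this threshold, 4.89% higher and 3.0% lower. Apoe, the main apolipoprotein of the brain, had a log2 change of 0.32 and an unadjusted p of 0.00231, Lcat, which esterifies cholesterol on lipoproteins, of 0.95 and 0.0119, and Por, the electron donor of Cyp51 and Sqle, of 0.21 and 0.0149. Apoe was at 528, 500, 674, 584 and 579 CPM in sham replicates 1 to 5 and at 714, 735, 639, 701 and 777 CPM in TBI replicates 1 to 5. Only TBI replicate 3 lay within the sham range, as for Clu. The lipid transfer gene Pltp (0.30) and the lysosomal cholesterol carrier Npc2 (0.55) were also higher, and the sterol-binding Osbp (-0.20) and the receptors Vldlr (-0.18) and Lrp8 (-0.18) were lower. Of 15 fatty acid synthesis genes, which answer to SREBP1, 1 was higher (the desaturase Scd, 0.20) and 1 was lower (the elongase Elovl6, -0.37) at this threshold, or 13.3%. Of these 15 genes 26.7% had a log2 change below 0, against 52.2% of all rows, and their median was 0.04. The third smallest p of that list was that of the desaturase Fads1, with a log2 change of 0.15.

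Markers of cell types and of hippocampal fields were tested in the same way, and 0 markers in each list passed an adjusted p of 0.05. The marker counts below are at an unadjusted p under 0.05, which 7.89% of all rows reached. In bulk tissue, fewer cells of a type and less RNA per cell cannot be told apart. Of 11 astrocyte markers 4 were higher and 0 lower at an unadjusted p under 0.05, with a median log2 change of 0.19, and their summed level was 2578 to 3596 CPM in sham rats and 2796 to 4512 CPM in TBI rats. Gfap, the astrocyte filament gene, was at 776, 910, 1628, 872 and 895 CPM in sham replicates 1 to 5 and at 2308, 2191, 980, 1704 and 1820 CPM in TBI replicates 1 to 5. The highest Gfap values were in TBI replicates 1 and 2, the lowest TBI value was in replicate 3 and the highest sham value was in replicate 3, as for Clu. Of 14 microglial markers 6 were higher and 0 lower, with a median of 0.29, and their sum was 256 to 389 CPM in sham and 305 to 420 CPM in TBI rats.

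Of 15 oligodendrocyte markers 2 were higher and 0 lower, with a median of 0.06, and their sums overlapped almost fully, at 2940 to 4203 CPM in sham and 3081 to 4074 CPM in TBI rats. Of 10 neuronal markers 0 had an unadjusted p under 0.05, with a median of -0.07 and sums of 3306 to 3998 CPM in sham and 3003 to 3694 CPM in TBI rats. Per rat, the mean of centred log2 CPM of the neuronal markers was -0.172 and -0.181 in TBI replicates 1 and 2 and from -0.042 to 0.218 in the other rats, so the 2 TBI rats with the lowest synthesis enzymes also had the lowest neuronal markers, and sham replicate 1 had the highest of both. Of 14 endothelial, pericyte and meningeal markers 3 were higher and 0 lower (median 0.11, sums of 81.0 to 118 CPM in sham and 98.8 to 122 CPM in TBI rats), and of 10 choroid plexus and ependymal markers 3 and 0 (median 0.42, sums of 25.5 to 52.8 and 41.6 to 58.4 CPM). No marker tested was at 0 in all rats.

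The tissue was checked on 9 genes of hippocampal fields, of which 1 was higher and 0 lower (median 0.09), with sums of 463 to 537 CPM in sham and 540 to 658 CPM in TBI rats. Prox1 of the dentate gyrus was at 9.55 to 41.4 CPM and Grik4 of CA3 at 105 to 152 CPM over all rats, so both labelled fields were present. Wfs1, a gene of CA1, which the dissection was not aimed at, was at 34.6, 18.1, 52.6, 33.7 and 46.6 CPM in sham replicates 1 to 5 and at 130, 237, 54.3, 23.0 and 91.0 CPM in TBI replicates 1 to 5. The highest values were in TBI replicates 1 and 2, the rats that also stood apart in the synthesis enzymes, Abca1 and Nr1h3. The part of astrocytes, microglia, neurons and the dissected fields in the differences of the cholesterol genes was not tested.

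**Figure D4:**
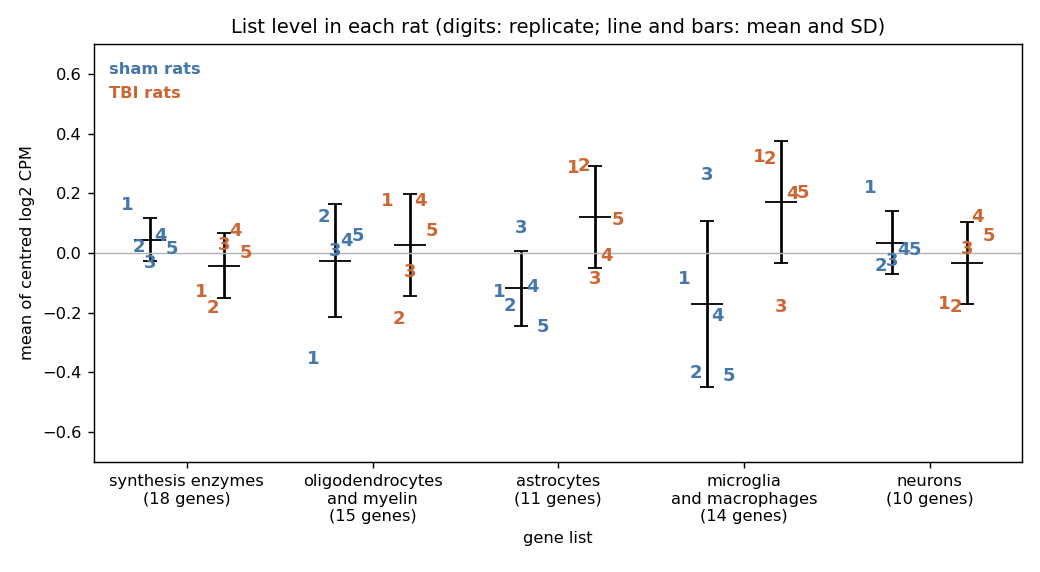
Each digit is 1 rat, numbered by replicate, placed at the mean of centred log2 CPM over a gene list, with the group mean as a line and the SD as bars. TBI replicates 1 and 2 lie lowest for the 18 synthesis enzymes and the 10 neuronal markers and highest for the 11 astrocyte and 14 microglial markers, and TBI replicate 3 lies nearest to the sham rats for the glial lists.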

How the data were processed

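Messenger RNA of 10 rats was poly-A selected and read in 36 cycles. The authors deposited raw, unnormalized counts, with 1 row for each RefSeq RNA record. The submitters' processing notes name BWA and the rat build rn4. The methods describe counting over Ensembl transcripts, and how this goes with RefSeq rows was not settled here. Record symbols, overlapping genes and promoters came from RefSeq tables of GRCr8, with no coordinates carried between builds. Strand use in counting is not given in the sources used here.

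Rows were kept where counts summed to at least 44, the 30th percentile, as in the study's methods. Groups were compared with the robust quasi-likelihood F test of edgeR 4.0.16 in R 4.3.3, with TMM scaling and Benjamini-Hochberg adjustment over 22431 rows. Standard errors are the size of the log2 change over the square root of F. List levels per rat used log2 CPM with a prior count of 2. Alternatives used DESeq2 1.42.0, limma 3.58.1, sva 3.50.0, other scalings and filters, a ribosomal RNA covariate and leaving out rats. Replicate numbers follow sample order and pair no rats. P-values of the F test weigh the group difference against the spread between these rats, estimated with information shared across rows. Those of the library measures come from exact permutation of the group labels.

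The genes and lists were chosen with earlier results of these data known. All 34 genes are named with their log2 change. Values in every rat are given for the 10 genes with the smallest p and the smallest in each role group, and the 3 smallest of each pathway list are named. Figures were drawn with matplotlib 3.10.9.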

Additional observations from a re-analysis of the deposited data

Results flagged for a closer look

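In 3 of 74 groups of 5 rats 1 rat lay far from the others, by a gap of over 0.71 of the group's range (Dixon's test). Chance flags about 1 in 20 groups, here 3.7. Acat2 was at 43.6 CPM in sham replicate 1 and at 32.9 to 36.0 CPM in the other sham rats. Abca1 was at 19.5 CPM in sham replicate 3, the sham rat with the highest Clu and Gfap, and at 16.3 to 17.0 CPM in the others. Cyp27a1 was at 13.9 CPM in sham replicate 1 and at 6.61 to 8.57 CPM in the others. The low Lrp1 value of TBI replicate 5 was not flagged by this rule.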

How the results depend on the processing

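The count of genes past an adjusted p of 0.05 was 0 in each other fit run, and 1, Clu, without sham replicate 3 and TBI replicate 3, an alternative added after seeing the data. In that fit 320 of 21980 rows passed, and over all rows the count was 92 under scaling by total counts, 12 without TBI replicate 3, 5 without sham replicate 3, 3 with DESeq2 and 0 in the other fits. The count at an unadjusted p under 0.05 was 6 with all rats, against 7.89% of all rows. It was 3 with limma-voom (7.94% of all rows) and 1, Nsdhl, with the ribosomal RNA covariate (4.42%). Without sham replicates 4 and 5 it was 2, Clu and Nsdhl (5.61%). When 1 rat was left out it was from 1 (without TBI replicate 2, 6.05%) to 7 (without TBI replicate 3, 8.95%). It was also 3 without sham replicate 1 (8.39%) or TBI replicate 1 (7.63%) and 2 without sham replicate 4 (6.31%). Among 34 genes, counts of 1 to 3 are near or below these shares. The count of genes whose groups did not overlap, 1 with all rats, was 0 under both scalings by total counts, with no row filter and without sham replicates 4 and 5. It was from 1 to 3 when 1 rat was left out and 4 without sham replicate 3 and TBI replicate 3. With all rats 0.923% of all rows did not overlap, and this share was not counted in the other fits. With fewer rats any row is more easily free of overlap, so these counts have no background to be read against. The median log2 change of the synthesis enzymes was 0.40 under scaling by total counts and 0.05 under scaling by counts outside ribosomal RNA. With the shift of the median of all rows taken off it was -0.11 and -0.10, which follows nearly by construction. The median of the enzymes was negative in every other alternative. It was from -0.13 to -0.06 when 1 rat was left out (-0.14 without sham replicate 3 and TBI replicate 3).

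Of the log2 changes of single genes, 752 were on the same side in sign and threshold, 51 lost the unadjusted threshold, 15 gained it and 32 changed sign, none of the latter in the 6 genes at an unadjusted p under 0.05. With limma-voom the sign changed for Hsd17b7 (0.0026), Tm7sf2 (0.0042), Sc5d (0.0077) and Cyp27a1 (0.0037). Under scaling by total counts, with the shift of the median of all rows taken off, it changed for Apod (0.0035). With the ribosomal RNA covariate it changed for Lrp1 (0.0499), Tm7sf2 (0.0019), Cyp51 (0.0022) and Apod (0.0981), and with the surrogate variable for Mvd (-0.00604). Without sham replicates 4 and 5 it changed for Cyp51 (0.0033) and Apod (0.0739). With rats left out in other ways the ranges that crossed 0 were -0.00441 to 0.0858 for Abcg1, -0.113 to 0.00611 for Abcg4, -0.0970 to 0.0231 for Apod, -0.311 to 0.118 for Cyp27a1, -0.0563 to 0.0179 for Cyp51, -0.216 to 0.0850 for Hsd17b7, -0.106 to 0.152 for Lrp1, -0.0620 to 0.0878 for Mvd, -0.0770 to 0.0438 for Sc5d, -0.126 to 0.0598 for Soat1 and -0.149 to 0.0172 for Tm7sf2. The causes were not tested. Low counts limit Ch25h and Nr1h3 most.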
